A study of Mus musculus with 24 samples.

Results

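A set of 10 genes that make, conjugate, carry or regulate bile acids was followed through the livers of 24 mice. The genes were *Cyp7a1*, *Cyp7b1*, *Cyp8b1*, *Cyp27a1* and *Baat* (synthesis and conjugation), *Slc10a1*, *Slco1a1*, *Abcb11* and *Abcb4* (transport) and *Nr0b2* (regulation). Every probe set of the array whose annotated symbol, current or older, was one of these 10 was taken as a member. Of the 10 genes, 7 had a probe set, 10 probe sets in all, among 8251 genes and 12422 probe sets with values on the array. For *Cyp27a1*, *Slco1a1* and *Abcb11* no probe set was named in the annotation used here, so these 3 genes were not analysed. *Cyp7b1* had 2 probe sets and *Slc10a1* had 3, and the brightest stood for the gene. One of the 3 *Slc10a1* probe sets lay at the floor (the lowest value kept, an intensity of 15.7) in all 24 mice and carries no information.

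Bile acids are made from cholesterol in hepatocytes, in a classic route that starts with cholesterol 7α-hydroxylase (*Cyp7a1*) and an acidic route that runs through sterol 27-hydroxylase (*Cyp27a1*) and oxysterol 7α-hydroxylase (*Cyp7b1*). The sterol 12α-hydroxylase *Cyp8b1* sets how much cholic acid is formed, and *Baat* joins the finished acids to taurine or glycine. Hepatocytes take bile salts back from portal blood through *Slc10a1* (NTCP) and *Slco1a1*, pump them into bile through *Abcb11*, and add phosphatidylcholine to bile through *Abcb4* (MDR2). *Nr0b2* (SHP) is a receptor without a DNA-binding domain that is induced by bile acids through the receptor FXR and holds down the synthesis genes. PPARα, the receptor activated by fibrates and by WY, is known for its effects on fatty acid oxidation and on sterol and bile acid genes of the liver.

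The samples were whole livers of male mice, 9 to 12 weeks old, on a mixed SV129/C57BL/6 background, either wild-type or PPARα-null, and all were kept on NIH-07 chow. Mice of each strain received control diet or diet with WY-14,643 (WY) at 500 ppm for 1 week. Heat shock (HS) was 40 minutes at 42 °C and the livers were taken 4 hours later, while the other mice stayed at room temperature in wire rack cages. This gave 8 groups of 3 mice: control, HS, WY and WY+HS in wild-type (mice 1 to 3, 4 to 6, 7 to 9 and 10 to 12) and in PPARα-null mice (13 to 15, 16 to 18, 19 to 21 and 22 to 24). Each mouse had an Affymetrix U74Av2 array of its own. The null mice lack PPARα throughout the body and from birth on, so differences between strains are not limited to events in hepatocytes or to the time of treatment. Values are quantile normalised intensities on a linear scale, and changes are differences of mean log2 intensity in limma with Benjamini-Hochberg adjustment over all 12422 probe sets. A change was called where the adjusted p was under 0.05.

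The *Ppara* probe set read 315, 298 and 357 in the wild-type controls and 185, 174 and 152 in the PPARα-null controls, without overlap, although that difference was not called (-0.92, adjusted p = 0.0594). No source used here says whether this probe set lies in the deleted part of the gene. All 8 hepatocyte markers with a probe set were above the floor, and their summed intensity ranged from 31882 to 39027 over the 24 livers. Of 6 cholangiocyte markers, 4 were at the floor in every mouse. Skeletal muscle markers stood apart in wild-type control mouse 1 and PPARα-null HS mice 16 and 17, where their sum was 1165, 1059.9 and 959.7, while it did not pass 289.7 in any other mouse. Several results that rest on those mice are given with and without them. Leaving out mouse 1 alone kept the WY calls of *Cyp7b1*, *Baat* and *Slc10a1* in wild-type and the WY+HS calls of *Cyp7b1* and *Slc10a1*. It ended both calls of *Abcb4*. Spearman correlations between arrays lay between 0.839 and 0.961. The limma p-values rest on the spread between mice within the 8 groups. Nothing in the labels ties mice to litters or cages, so a part of either in the differences between groups could not be taken into account.

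Promoters of the 2 transporter genes that could be measured are shown because these genes moved in opposite directions with WY. Sequences are from RefSeq on build GRCm38.p6 and run from 250 bases before to 50 bases after an annotated start, on the strand of the gene. Of the 10 genes, 7 had an entry, with 8 entries in all. *Cyp7a1*, *Cyp7b1* and *Baat* had none. *Slc10a1* has 2 entries, the first at the outer start of the gene and the second at a start inside it. Capitals mark the motif matches.
Slc10a1, outer start, chr12:80968656-80968955, minus strand: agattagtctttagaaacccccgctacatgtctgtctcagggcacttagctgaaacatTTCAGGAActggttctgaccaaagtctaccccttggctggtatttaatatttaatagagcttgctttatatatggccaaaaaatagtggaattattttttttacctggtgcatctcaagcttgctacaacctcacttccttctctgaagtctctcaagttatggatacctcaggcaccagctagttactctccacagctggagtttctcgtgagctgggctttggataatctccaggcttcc
Slc10a1, inner start, chr12:80968030-80968329, minus strand: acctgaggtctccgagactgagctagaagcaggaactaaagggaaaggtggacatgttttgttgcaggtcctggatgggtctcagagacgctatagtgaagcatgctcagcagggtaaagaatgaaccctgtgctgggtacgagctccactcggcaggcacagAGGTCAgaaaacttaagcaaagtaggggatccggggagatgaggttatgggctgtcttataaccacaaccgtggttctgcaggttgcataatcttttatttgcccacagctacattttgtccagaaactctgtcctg
Abcb4, chr5:8893471-8893770, plus strand: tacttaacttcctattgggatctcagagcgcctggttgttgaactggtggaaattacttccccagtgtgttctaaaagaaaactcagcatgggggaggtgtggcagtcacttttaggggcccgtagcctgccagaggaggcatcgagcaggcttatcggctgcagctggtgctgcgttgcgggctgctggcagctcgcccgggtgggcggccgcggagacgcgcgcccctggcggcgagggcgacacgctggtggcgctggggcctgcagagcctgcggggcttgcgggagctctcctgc

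Motifs were sought on both strands. They were the nuclear receptor half-site AGGTCA, its direct repeat with 1 base between (AGGTCANAGGTCA, the PPARα-RXR type), its inverted repeat with 1 base between (AGGTCANTGACCT, the FXR type), the extended half-site of the NR5A2 type (CAAGGTCA or CAAGGCCA), heat shock elements of 2 units (GAANNTTC or TTCNNGAA) and of 3 units (GAANNTTCNNGAA or TTCNNGAANNTTC), and the D-box TTATGTAA. Both repeats and the extended site with T hold the half-site, and the element of 3 units holds that of 2. Among 32851 mouse promoters of this length, the half-site was found in 16.26%, the direct repeat in 0.04%, the inverted repeat in 0.01%, the extended half-site in 3.92%, heat shock elements of 2 and 3 units in 15.06% and 0.6%, and the D-box in 0.94%. The outer *Slc10a1* promoter held 1 heat shock element of 2 units, TTCAGGAA, from -192 to -185, and the inner one held 1 half-site, AGGTCA, from -87 to -82. The *Abcb4* promoter held no match, which says only that these letters are not in this window. Of the entries not printed, *Slco1a1* held 2 half-sites, *Abcb11* held 1, *Nr0b2* held 1 extended half-site (CAAGGCCA), and *Cyp8b1* and *Cyp27a1* held no match.

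WY in wild-type livers moved 4 of the 7 genes. *Cyp7b1*, *Baat* and *Slc10a1* fell and *Abcb4* rose, against a background of 10.8% of all probe sets called (5.59% higher and 5.19% lower). All 3 WY mice lay outside the control range for 6 of the 7 genes, against 24.1% of all probe sets. The median change of the 7 genes was -0.59 on the log2 scale, while that of all probe sets was 0. WY+HS against control in wild-type gave 3 of 7, *Cyp7b1* and *Slc10a1* lower and *Abcb4* higher (background 10.6%, 5.23% higher and 5.38% lower), and the 2 comparisons share their control mice. HS alone in wild-type called 0 of 7 in limma (background 0.0403%), where 1 gene had an unadjusted p under 0.05 and the analysis of variance of the study's methods also called 0. WY+HS against WY in wild-type called 0 of 7 in both tests (background 0.427%), with 2 genes at an unadjusted p under 0.05.

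In PPARα-null livers WY called 0 of the 7 genes in limma and in the methods' test (background 0.00805%), with 1 gene at an unadjusted p under 0.05. HS in PPARα-null livers called 1 of 7, *Slc10a1*, which fell (background 7.07%, 3.18% higher and 3.89% lower). All 3 HS mice lay outside the control range for 3 of 7, each time below it, against 17.6% of all probe sets. WY+HS against control called 0 of 7 in both tests (background 0.0161%) and 0 at an unadjusted p under 0.05. WY+HS against HS called 1 of 7, *Slc10a1* again, which was higher (background 11.2%, 6.05% higher and 5.14% lower). Between strains, 0 of 7 were called in controls in both tests (background 0.845%), with 1 gene at an unadjusted p under 0.05. The count was 2 of 7 after HS (background 14.8%), 4 of 7 with WY (background 13%) and 3 of 7 with WY+HS (background 11.7%). The effect of WY differed between strains for 1 of 7, *Cyp7a1* (background 5.13%). The effect of HS differed for 0 of 7 in both tests (background 1.62%), with 2 genes at an unadjusted p under 0.05, though it did for the second probe set of *Slc10a1*.

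**Figure D1:**
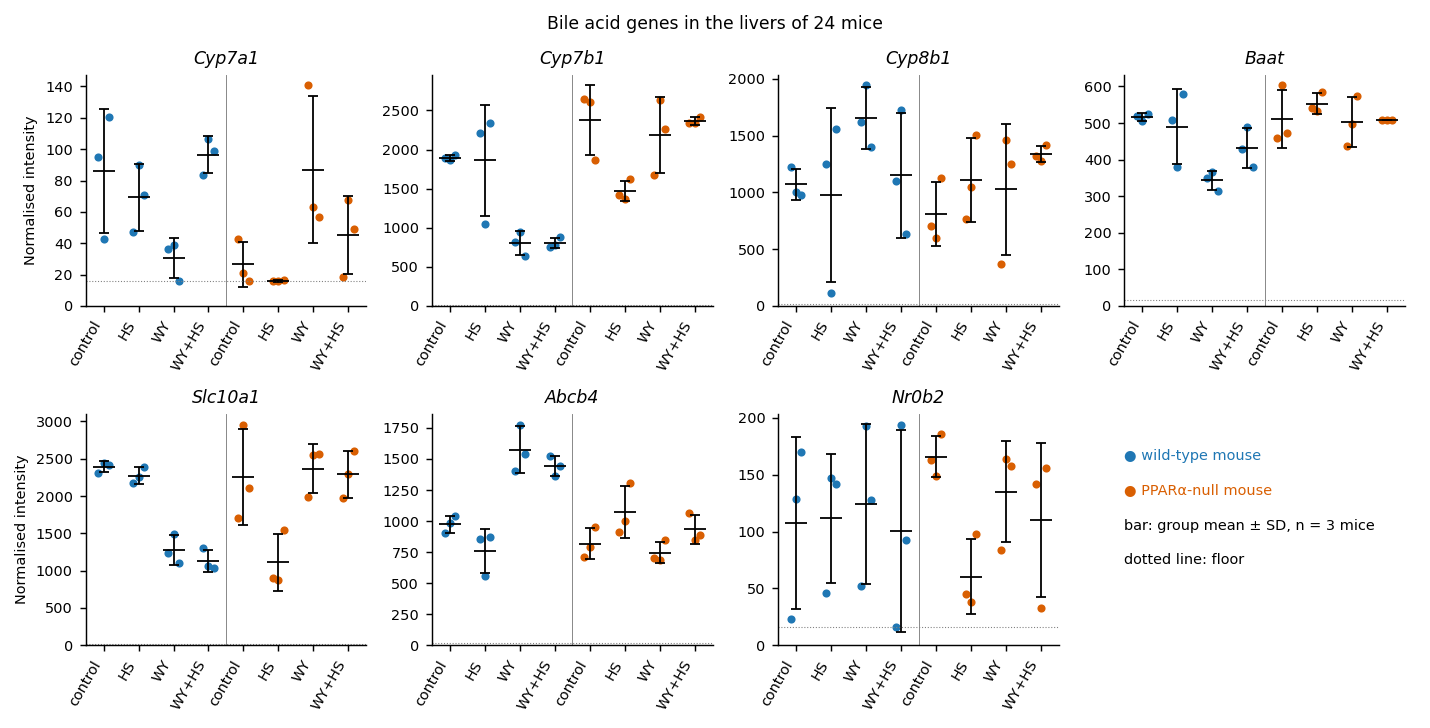
Normalised intensity (linear axes from 0, each gene on its own scale) of the 7 genes in 8 groups of 3 mice, wild-type in blue and PPARα-null in orange, with the group mean and SD as bars and the floor as a dotted line. Cyp7b1 and Slc10a1 are low and Abcb4 is high in the 6 wild-type mice that received WY, and Slc10a1 is also low in the PPARα-null HS mice.

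*Cyp7b1* (chromosome 3, 18071944 to 18243890, GRCm38.p6), the oxysterol 7α-hydroxylase of the acidic route, fell the most of the 4 called genes with WY in wild-type livers. It read 1889, 1864 and 1936 in wild-type controls and 823, 952 and 642 with WY, so that every WY mouse was below every control. The change was -1.25 ± 0.24 (SE, adjusted p = 0.00215), a 2.39-fold decrease. With WY+HS the wild-type mice read 756, 785 and 879, and the change from control was -1.24 ± 0.24 (SE, adjusted p = 0.00234). Mice that had WY alone and mice that had WY and HS overlapped. Without scaling of the arrays the WY change was -0.82 (adjusted p = 0.0565), in a setting where the median over 4821 probe sets above the floor rose by 0.47. HS alone gave 2207, 1044 and 2335, where mouse 5 was below the other 2 HS mice and all 3 controls. In whole liver, fewer cells of a type and less RNA per cell cannot be told apart.

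In PPARα-null livers *Cyp7b1* was 2653, 2610.4 and 1864 in controls and 1671, 2639 and 2258 with WY, groups that overlapped (log2 change -0.12, 95% interval -0.64 to 0.39, adjusted p = 1). The test of the difference between strains in the WY effect gave 1.13 (adjusted p = 0.0741) and was not called. With WY in both strains, the PPARα-null mice read 2.71-fold above wild-type (1.44, SE 0.24, adjusted p = 0.000569), while after both treatments the difference was 1.56 ± 0.24 (SE, adjusted p = 0.000279). After HS the PPARα-null mice read 1420.2, 1372 and 1619.7, all below the controls of their strain, but the change of -0.68 did not pass the test (adjusted p = 0.117). Ordered by mean, the groups fall into 2 sets. The 6 highest, from PPARα-null control (2376 ± 444, SD, n = 3) down to PPARα-null HS (1471 ± 131, SD, n = 3), each overlap their neighbour, and wild-type WY+HS and WY (807 ± 64.2 and 805 ± 156, SD, n = 3 each) lie below without overlap. The second *Cyp7b1* probe set fell by 1.18 with WY in wild-type (adjusted p = 0.00284) and by 1.18 with WY+HS (adjusted p = 0.00279).

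*Cyp7a1* (chromosome 4, 6265612 to 6275632, GRCm38.p6), the rate-limiting enzyme of the classic route, was a dim probe set, at the floor in 4 of 24 mice. With WY it was lower in wild-type and higher in PPARα-null livers, and the difference between those effects passed the test. Wild-type controls read 94.7, 42.6 and 120.5 and wild-type WY mice 36.4, 38.9 and 15.7, the last at the floor. Every WY mouse was below every control, but the change of -1.48 was not called (adjusted p = 0.0935). Without wild-type control mouse 2, the dimmest of its group, it was -1.92 (adjusted p = 0.0423). PPARα-null controls read 42.6, 21.2 and 15.7, the last at the floor, and PPARα-null WY mice 141, 62.9 and 56.9. There every WY mouse was above every control, and this change, 1.72, was not called either (adjusted p = 0.73). The effect of WY in PPARα-null minus that in wild-type livers was 3.20 ± 0.74 (SE, adjusted p = 0.0156). It was 2.89 (adjusted p = 0.0505) without wild-type control mouse 3, the brightest of its group, and 3.07 (adjusted p = 0.068) without mice 1, 16 and 17, which in both cases misses the threshold, as did the fits without scaling, with the analysis of variance of the methods and with only the arrays compared (adjusted p = 0.0877, 0.0557 and 0.0705).

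HS left *Cyp7a1* in wild-type livers at 46.98, 90.02 and 70.7, overlapping the controls (-0.23, 95% interval -1.35 to 0.88). In wild-type mice that had both treatments it was 83.6, 107 and 98.7, all above the mice with WY alone, a difference of 1.77 that was not called (adjusted p = 0.201). The PPARα-null HS mice read 15.7, 15.7 and 16.8, with 2 of 3 at the floor. Against wild-type HS mice this was a change of -2.05 ± 0.53 (SE, adjusted p = 0.0134), which is limited by the floor on the null side. Without wild-type HS mouse 5 that difference was -1.84 (adjusted p = 0.056), and without mice 1, 16 and 17 it was -1.99 (adjusted p = 0.251). In controls the strains did not overlap, by a margin within rounding (the highest PPARα-null and the lowest wild-type mouse both read 42.6), and the difference of -1.70 was not called (adjusted p = 0.169). Ordered by mean from wild-type WY+HS (96.3 ± 11.7, SD, n = 3) to PPARα-null HS (16.1 ± 0.627, SD, n = 3), each of the 8 groups overlapped the next.

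*Cyp8b1* (chromosome 9, 121914356 to 121916305, GRCm38.p6), the 12α-hydroxylase that directs synthesis to cholic acid, spread widely within groups and was called in none of the 14 comparisons. It read 1228, 1008 and 979.7 in wild-type controls and 1619.7, 1943 and 1401 with WY, where all 3 WY mice were above the controls. The change was 0.62 with a 95% interval of -0.95 to 2.19 (adjusted p = 0.929). Wild-type HS mice read 1254, 111 and 1563. Mouse 5 of this group was the lowest of the 24 livers for *Cyp8b1*, and it was also the lowest HS wild-type mouse for *Cyp7b1*, *Baat* and *Abcb4*, but not for *Slc10a1*, *Cyp7a1* or *Nr0b2*. In PPARα-null mice the range was from 371 to 1505 over the 12 livers. Each of the 8 groups overlapped the next when ordered by mean.

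*Baat* (chromosome 4, 49489416 to 49507915, GRCm38.p6), which conjugates bile acids to amino acids, fell with WY in wild-type livers by less than the other called genes that fell. Wild-type controls read 519.7, 505 and 526 and WY mice 351, 365 and 316, without overlap. This was a decrease of 1.51-fold, -0.59 ± 0.14 (SE, adjusted p = 0.00933). With WY+HS the wild-type mice read 429, 489 and 379, between the 2, and the change from control was not called (-0.26, adjusted p = 0.298). In PPARα-null mice *Baat* lay between 438 and 603 in all 12 livers, and the WY effect there was -0.02 (95% interval -0.31 to 0.27). PPARα-null WY mice were above wild-type WY mice by 0.54 ± 0.14 (SE, adjusted p = 0.014). Without wild-type mouse 9 or PPARα-null mouse 21 that difference was 0.48 (adjusted p = 0.0662) or 0.44 (adjusted p = 0.0798). It was 0.49 (adjusted p = 0.0606) with a common median and 0.01 (adjusted p = 1) without scaling, and missed the threshold in the methods' test and with only the arrays compared (adjusted p = 0.0993 and 0.0803). Without scaling of the arrays the change with WY was -0.13 (adjusted p = 0.937), against the rise of 0.47 in the median probe set. The methods' test of that change gave an adjusted p of 0.0585.

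*Slc10a1* (chromosome 12, 80953185 to 80968705, GRCm38.p6), the main sodium-dependent importer of bile salts into hepatocytes, was low in 3 of the 8 groups: wild-type with WY, wild-type with WY+HS, and PPARα-null after HS. Wild-type controls read 2312, 2448 and 2420.3 and wild-type WY mice 1239.7, 1495 and 1099.97, without overlap. The change was -0.92 ± 0.21 (SE, adjusted p = 0.00829), a 1.89-fold decrease. With WY+HS the wild-type mice read 1299, 1059.98 and 1032 and the change from control was -1.09 ± 0.21 (SE, adjusted p = 0.00204). After HS alone wild-type livers read 2169, 2258 and 2396, overlapping the controls, with a change of -0.07 (95% interval -0.52 to 0.37). Without scaling of the arrays the WY change in wild-type was -0.53 (adjusted p = 0.243), against the same rise of 0.47 in the median probe set, and the methods' test gave an adjusted p of 0.0521.

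In PPARα-null livers *Slc10a1* read 1700.2, 2956 and 2103 in controls and 1984, 2547 and 2571 with WY, which overlapped (0.10, 95% interval -0.35 to 0.55). After HS it read 906, 881 and 1549, all below the controls. Mouse 18 lay closer to the controls than mice 16 and 17. The change was -1.03 ± 0.21 (SE, adjusted p = 0.0067), or 2.04-fold. With only the 6 arrays compared in the fit it was -1.03 (adjusted p = 0.315), and without scaling -1.12 (adjusted p = 0.0684). In PPARα-null mice that had WY before HS it was 1973, 2291 and 2610.4, in the range of the controls and above HS alone by 1.08 ± 0.21 (SE, adjusted p = 0.00311). With only the arrays compared that difference had an adjusted p of 0.146. Against wild-type livers of the same treatment, the PPARα-null livers held more *Slc10a1* in WY mice (0.89, adjusted p = 0.0084) and in WY+HS mice (1.02, adjusted p = 0.00342), and less in HS mice (-1.08, adjusted p = 0.00195). The difference with WY was 0.36 (adjusted p = 0.511) without scaling and missed the threshold in the methods' test and with only the arrays compared (adjusted p = 0.0629 and 0.0546). The difference in WY+HS mice was 0.97 (adjusted p = 0.0587) without scaling and 0.63, still called, with the mean over all 3 probe sets, and that in HS mice had an adjusted p of 0.103 with only the arrays compared. The interaction of WY and strain was 1.02 (adjusted p = 0.063). Ordered by mean, the 5 highest groups, from wild-type control (2394 ± 71.7, SD, n = 3) to PPARα-null control (2253 ± 641, SD, n = 3), each overlapped the next. Wild-type WY, wild-type WY+HS and PPARα-null HS (1278 ± 201, 1130.4 ± 147 and 1112 ± 379, SD, n = 3 each) lay below them and overlapped one another.

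The second *Slc10a1* probe set gave a larger fall after HS in PPARα-null livers. It read 840.4, 1636 and 891 in controls and 208, 165 and 505 after HS, a change of -2.05 ± 0.31 (SE, adjusted p = 0.000821), or 4.13-fold. In wild-type it read 1362, 1425 and 1495 in controls and 1359, 1536 and 1499 after HS (0.04, 95% interval -0.63 to 0.70). The HS effect in PPARα-null minus that in wild-type was -2.08 ± 0.44 (SE, adjusted p = 0.0246) for this probe set and -0.96 ± 0.30 (SE, adjusted p = 0.128) for the first, so that the difference between strains was called with one of them. The call was lost without mice 1, 16 and 17 (-1.09, adjusted p = 0.427), without scaling (-2.44, adjusted p = 0.17), with only the arrays compared (adjusted p = 0.186) and with any 1 of 8 of the 12 mice left out. The 2 probe sets moved in the same direction in WY against control in wild-type, where the second read 846, 833 and 682 with WY and its change of -0.86 was not called (adjusted p = 0.103). With WY+HS its change in wild-type was -1.08 ± 0.31 (SE, adjusted p = 0.0348). Leaving out any 1 of the 6 mice ended that call.

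Markers of other cells were also read in PPARα-null HS livers, where *Slc10a1* fell and 7.07% of all probe sets were called (3.18% higher and 3.89% lower). Of 8 skeletal muscle markers with a probe set, 7 were above the floor in some mouse and 0 were called (3 at an unadjusted p under 0.05), and their summed intensity was 209 to 1059.9 after HS against 207 to 285 in PPARα-null controls. *Acta1*, the actin of skeletal muscle, read 592, 478 and 15.7 after HS and was at the floor in mouse 18 and in all 3 controls. Of the other muscle markers, *Myl1*, *Tnnt3* and *Tnnc2* changed by 1.76, 1.55 and 0.79, *Mylpf* and *Myh4* by 0.38 and 0.11 and *Ckm* by -0.94, all on the log2 scale with none called, and *Mb* was at the floor in every mouse. Of 8 stellate cell markers 4 rose and 0 fell, with sums of 1918 to 2589.9 against 1388 to 1672, and of 7 endothelial markers 2 rose and 0 fell (844 to 1201 against 656 to 828). Within the HS group both sums were highest in mouse 18, the mouse with the most *Slc10a1* of that group. Without mice 1, 16 and 17 the counts that rose were 1 of 8 and 1 of 7, and without scaling, with only the arrays compared or in the methods' test they were 0 and 0. Of 8 hepatocyte markers 0 were called in limma or the methods' test, with 3 at an unadjusted p under 0.05, and their sums were 36466 to 37808 against 37689 to 38089. The part of the muscle, stellate and endothelial signal in the result was not tested.

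Without mice 1, 16 and 17, chosen after the data were seen, the PPARα-null HS group is mouse 18 alone, and a lone mouse is assumed to vary like the other groups. The HS change of *Slc10a1* was then -0.50 (adjusted p = 0.684) for the first and -1.08 (adjusted p = 0.134) for the second probe set, both short of the threshold. WY+HS against HS gave 0.56 (adjusted p = 0.458) and 1.30 (adjusted p = 0.0475), and PPARα-null against wild-type after HS gave -0.55 (adjusted p = 0.348) and -1.53 (adjusted p = 0.0113). The second probe set was called in the last 2 of these comparisons and the first in none of the 3. Leaving out any 1 mouse in turn kept the HS call of both probe sets.

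**Figure D2:**
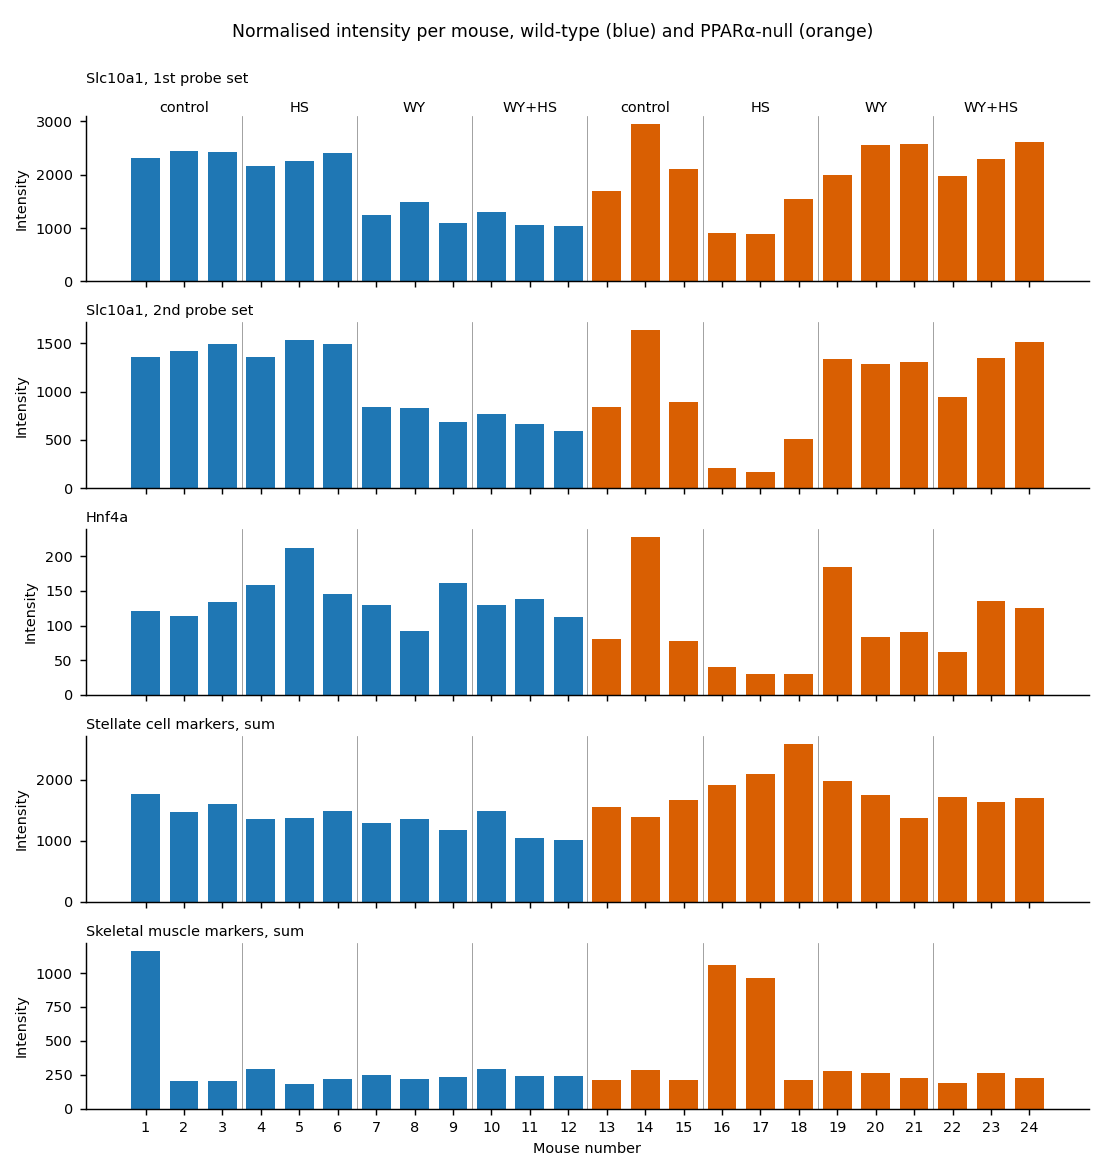
Normalised intensity per mouse (bars from 0) of both Slc10a1 probe sets, of Hnf4a and of the summed stellate cell and skeletal muscle markers, wild-type in blue and PPARα-null in orange, with groups separated by lines. Slc10a1 and Hnf4a are low in PPARα-null HS mice 16 to 18, the muscle sum is high in mice 1, 16 and 17, and the stellate sum is highest in mouse 18.

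*Abcb4* (chromosome 5, 8893614 to 8959226, GRCm38.p6), the phospholipid flippase of the canalicular membrane, was the only gene of the 7 called higher with WY. The changes of *Cyp8b1* and *Nr0b2* with WY in wild-type, 0.62 and 0.45, were also upward but not called. Wild-type controls read 904, 983 and 1038 and WY mice 1401, 1776 and 1544, without overlap. The change was 0.69 ± 0.17 (SE, adjusted p = 0.014), a 1.61-fold increase. With WY+HS the wild-type mice read 1521, 1362 and 1446, all above the controls, and the change was 0.57 ± 0.17 (SE, adjusted p = 0.0431). Without wild-type control mouse 1 or WY mouse 8 the WY change was 0.63 (adjusted p = 0.0597) or 0.60 (adjusted p = 0.0692), and with arrays scaled to a common median it was 0.55 (adjusted p = 0.0718). The methods' test gave an adjusted p of 0.0863. The WY+HS change lost its call with any 1 of its 6 mice left out, at 0.51 to 0.61 (adjusted p = 0.0706 to 0.143). That call was also lost without scaling and in the methods' test.

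In PPARα-null livers *Abcb4* read 709.99, 788 and 954 in controls and 702, 689.6 and 846 with WY (-0.13, 95% interval -0.49 to 0.24). The strains differed in WY-treated mice, where PPARα-null livers were lower, at -1.08 ± 0.17 (SE, adjusted p = 0.000312), and with WY+HS, at -0.63 ± 0.17 (SE, adjusted p = 0.0217). The second of these lost its call without mouse 10, 12, 23 or 24 (-0.63 to -0.57). The interaction of WY and strain was -0.81 (adjusted p = 0.0661) and was not called. With HS, *Abcb4* read 853, 554 and 875 in wild-type, all below the controls, and 913, 998 and 1309 in PPARα-null mice, where 2 of 3 were above the controls. The changes, -0.39 and 0.39, did not pass the test (adjusted p = 0.866 and 0.233). Ordered by mean, wild-type WY and WY+HS (1573 ± 189 and 1443 ± 79.3, SD, n = 3 each) overlapped each other and no other group, and the remaining 6 groups each overlapped the next.

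*Nr0b2* (chromosome 4, 133553376 to 133556686, GRCm38.p6), the repressor SHP, varied from the floor to 194 and was called in none of the 14 comparisons. Wild-type controls alone spanned 23.1, 129 and 170.1. Wild-type WY mice read 52.1, 193 and 128, and the change of 0.45 had a 95% interval of -1.48 to 2.37. With 3 mice per group, changes of more than 2-fold in either direction are thus not excluded. In PPARα-null mice it was 163, 149 and 186 in controls and 45.2, 37.7 and 97.9 after HS, without overlap. That change, -1.59, did not pass the test (95% interval -3.51 to 0.34, adjusted p = 0.405). Each of the 8 groups overlapped the next when ordered by mean.

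**Figure D3:**
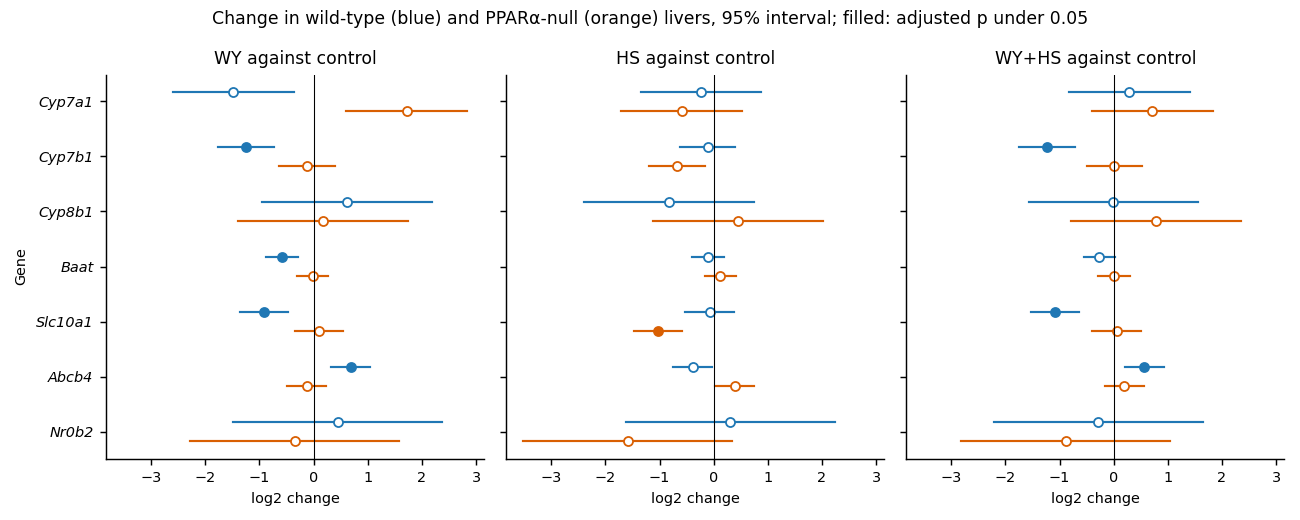
Log2 change of the 7 genes with WY, HS and WY+HS against control, in wild-type (blue) and PPARα-null (orange) livers, with 95% intervals from limma, and filled points where the adjusted p was under 0.05. Called changes lie in wild-type with WY and WY+HS, and for Slc10a1 in PPARα-null livers with HS.

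Around these genes, the remaining enzymes of bile acid synthesis were read from a list of 16, of which 11 had a probe set. With WY in wild-type livers 6 rose and 2 fell (background 5.59% higher and 5.19% lower). The median log2 change was 0.63, against 0 over all probe sets. Without scaling 1090 of all probe sets were called higher and 121 lower, and 5 genes of the list rose and 0 fell. Among the genes that rose, *Amacr*, the racemase that prepares the side chain, went from 43.7 ± 25.9 to 161 ± 22.7 (SD, n = 3 each; 2.04, adjusted p = 0.0224). *Abcd3*, a peroxisomal transporter, went from 664 ± 55.4 to 2269.9 ± 19.4 (1.78, adjusted p = 3.73e-10). The thioesterase *Acot8* and the multifunctional enzyme *Hsd17b4* changed by 1.67 and 1.12 (adjusted p = 6.82e-05 and 2.76e-07). *Scp2* and *Pex5*, which act in peroxisomes too, changed by 0.25 and 0.34 and were not called (adjusted p = 0.306 and 0.111). Among those that fell, *Slc27a5*, the bile acid CoA ligase, went from 2045 ± 94.8 to 1185 ± 159.9 (-0.79, adjusted p = 0.000775), and without scaling its change was -0.37 (adjusted p = 0.196).

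Without mouse 1 and the other 2 mice with muscle signal the counts were 5 and 2, and the change of *Amacr* was 1.65 (adjusted p = 0.142). In PPARα-null livers WY called 0 genes in this and each of the other 5 lists described, in limma, at an unadjusted p under 0.05 and in the methods' test. The limma background there was 0.00805%. The median change of these 11 genes there was 0.03. The difference between strains was called for 5 of 11 (background 5.13%), among them *Abcd3* (-1.66, adjusted p = 2.09e-07), *Acot8* (-2.15, adjusted p = 0.000442), *Hsd17b4* (-1.07, adjusted p = 6.32e-05) and, in the other direction, *Slc27a5* (0.74, adjusted p = 0.0312). With HS in PPARα-null livers 1 of the 11 was called (background 7.07%), *Hsd17b4*, which went from 618 ± 36.7 to 390.3 ± 36.3 (-0.67, adjusted p = 0.000294). Without mice 1, 16 and 17 the change was -0.52 (adjusted p = 0.0319), with only the arrays compared -0.67 (adjusted p = 0.0966) and without scaling -0.67 (adjusted p = 0.305).

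Among 11 measured transporters of bile acids and sterols other than the members, from a list of 20, WY raised 2 and lowered 1 in wild-type livers (background 5.59% higher and 5.19% lower). The list's median change was 0.23. *Abcg2*, a canalicular exporter, went from 211 ± 21.98 to 659 ± 27.6 (1.65, adjusted p = 1.24e-05). *Abcb1b*, a multidrug exporter, was at the floor in all 3 controls and read 49.4, 39.1 and 47.1 with WY, at least 2.86-fold higher (adjusted p = 8.52e-06). The floor gave those controls a shared value, so their spread was not measured and that p-value can be too small. *Pdzk1*, a scaffold of transporters, fell from 133 ± 14.3 to 73.97 ± 13.4 (-0.86, adjusted p = 0.00447). Without scaling or with only the arrays compared 3 rose and 0 fell, and *Pdzk1* was -0.35 (adjusted p = 0.672) and -0.86 (adjusted p = 0.0685). Over all probe sets, 1090 were called higher and 121 lower without scaling, and 1000 in either direction with only the arrays compared. HS in PPARα-null livers called 0 of the 11 in limma (background 7.07%) and in the methods' test, with 1 gene at an unadjusted p under 0.05. The smallest adjusted p was that of *Abcg2* (0.51, adjusted p = 0.13).

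Of 23 measured regulators of bile acid genes, from a list of 28, WY in wild-type livers raised 0 and lowered 2. Over all probe sets 10.8% were called (5.59% higher and 5.19% lower), so 2 of 23 does not set this list apart. Without scaling neither fall was called, at -0.13 (adjusted p = 1) for *Nr5a2* and -0.34 (adjusted p = 0.453) for *Cebpa*. *Nr5a2* (LRH-1), an activator of *Cyp7a1* and *Cyp8b1* in liver, went from 207 ± 19.5 to 135 ± 6.43 (-0.61, adjusted p = 0.00116), and *Cebpa*, a hepatocyte transcription factor, from 2589 ± 140.04 to 1681 ± 132 (-0.62, adjusted p = 0.00576). After HS in PPARα-null livers 1 of the 23 was lower and 0 higher (background 3.89% lower and 3.18% higher). This was *Hnf4a*, a receptor that many hepatocyte genes depend on, which read 80.3, 228 and 77.5 in PPARα-null controls and 40.7, 29.7 and 29.9 after HS (-1.76, adjusted p = 0.0119). All 3 HS mice were below the controls, mouse 18 included, and control mouse 14 stood above the other 2. With WY before HS it read 61.8, 135 and 126, above HS alone by 1.62 (adjusted p = 0.0135). Wild-type controls and HS mice read 122, 114 and 134 and 159, 212 and 145. Without mice 1, 16 and 17 the fall was -1.91 (adjusted p = 0.207) and the second difference 1.77 (adjusted p = 0.208), and with only the arrays compared the fall was -1.76 (adjusted p = 0.263), and without scaling -1.62 (adjusted p = 0.219). Whether its fall bears on *Slc10a1* was not tested.

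Cholesterol is the substrate of bile acid synthesis, and 20 of 27 listed genes of its synthesis and uptake had a probe set. With WY in wild-type livers 7 rose and 0 fell (background 5.59% higher and 5.19% lower), all enzymes of the mevalonate and sterol pathway. The median log2 change of the list was 1.28. *Hmgcs1* (HMG-CoA synthase) read 75.5, 104 and 87.04 in controls and 617, 509 and 573 with WY (2.68, adjusted p = 3.85e-05). *Idi1*, *Cyp51* and *Fdft1* changed by 2.45, 2.27 and 1.92 (adjusted p = 0.0177, 0.0112 and 0.00416). Without mouse 1 and the other 2 mice the counts were 3 higher and 1 lower, without scaling 11 and 0, and in the methods' test 2 and 0. Over all probe sets, 1090 were called higher and 121 lower without scaling, against 694 and 645 with it. In either direction, 1027 were called without mouse 1 and the other 2 mice and 713 in the methods' test, against 1339. *Idi1* was 2.44 (adjusted p = 0.0755) without those mice. With WY+HS in wild-type livers the same list had 1 called higher and 1 lower (background 5.23% and 5.38%), and *Hmgcs1* read 340.1, 442 and 269.8. The direct comparison, WY+HS against WY, called 0 of 20 (background 0.427%). Its median was -0.59, with 5 genes at an unadjusted p under 0.05. HS against control in wild-type livers on control diet also called 0 of 20, with a median of 0.41. The direct comparison reads the effect of HS in mice on WY. Whether HS changed the effect of WY was not tested. In PPARα-null livers with WY the median was 0.04. The difference between strains was called for 1 of 20 (background 5.13%), *Hmgcs1* (-2.69, adjusted p = 0.00228). HS in PPARα-null livers called 0 of 20 in limma (background 7.07%) and in the methods' test, with 2 genes at an unadjusted p under 0.05. The smallest adjusted p was that of *Scarb1*, the receptor for high-density lipoprotein (-0.45, adjusted p = 0.24).

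Of 9 measured enzymes that hydroxylate or conjugate bile acids for excretion, from a list of 11, WY in wild-type livers raised 0 and lowered 4 (background 5.59% and 5.19%). The median log2 change was -0.12. Without mouse 1 and the other 2 mice, without scaling or in the methods' test, 1 was lowered. Over all probe sets, 121 were called lower without scaling, against 645 with it. *Cyp2c70*, the enzyme that makes muricholic acids in mice, read 1526, 1629.97 and 1425 in controls and 165, 232 and 215 with WY, a 7.56-fold decrease (-2.92, adjusted p = 7.94e-09). It was the largest fall among the genes of this list, and in PPARα-null mice *Cyp2c70* read 1619.7, 1798 and 1195 in controls and 1362, 1383 and 1126 with WY, which overlapped. The difference between strains was 2.68 (adjusted p = 4.57e-06). *Gsta2*, *Cyp2b10* and *Cyp2c29*, which act on many other compounds as well, changed by -1.60, -1.49 and -0.95 in wild-type (adjusted p = 0.0171, 0.0301 and 0.0234). HS in PPARα-null livers called 0 of the 9 in limma (background 7.07%) and in the methods' test, with 1 gene at an unadjusted p under 0.05 and the smallest adjusted p for *Cyp3a13* (0.36, adjusted p = 0.124).

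**Figure D4:**
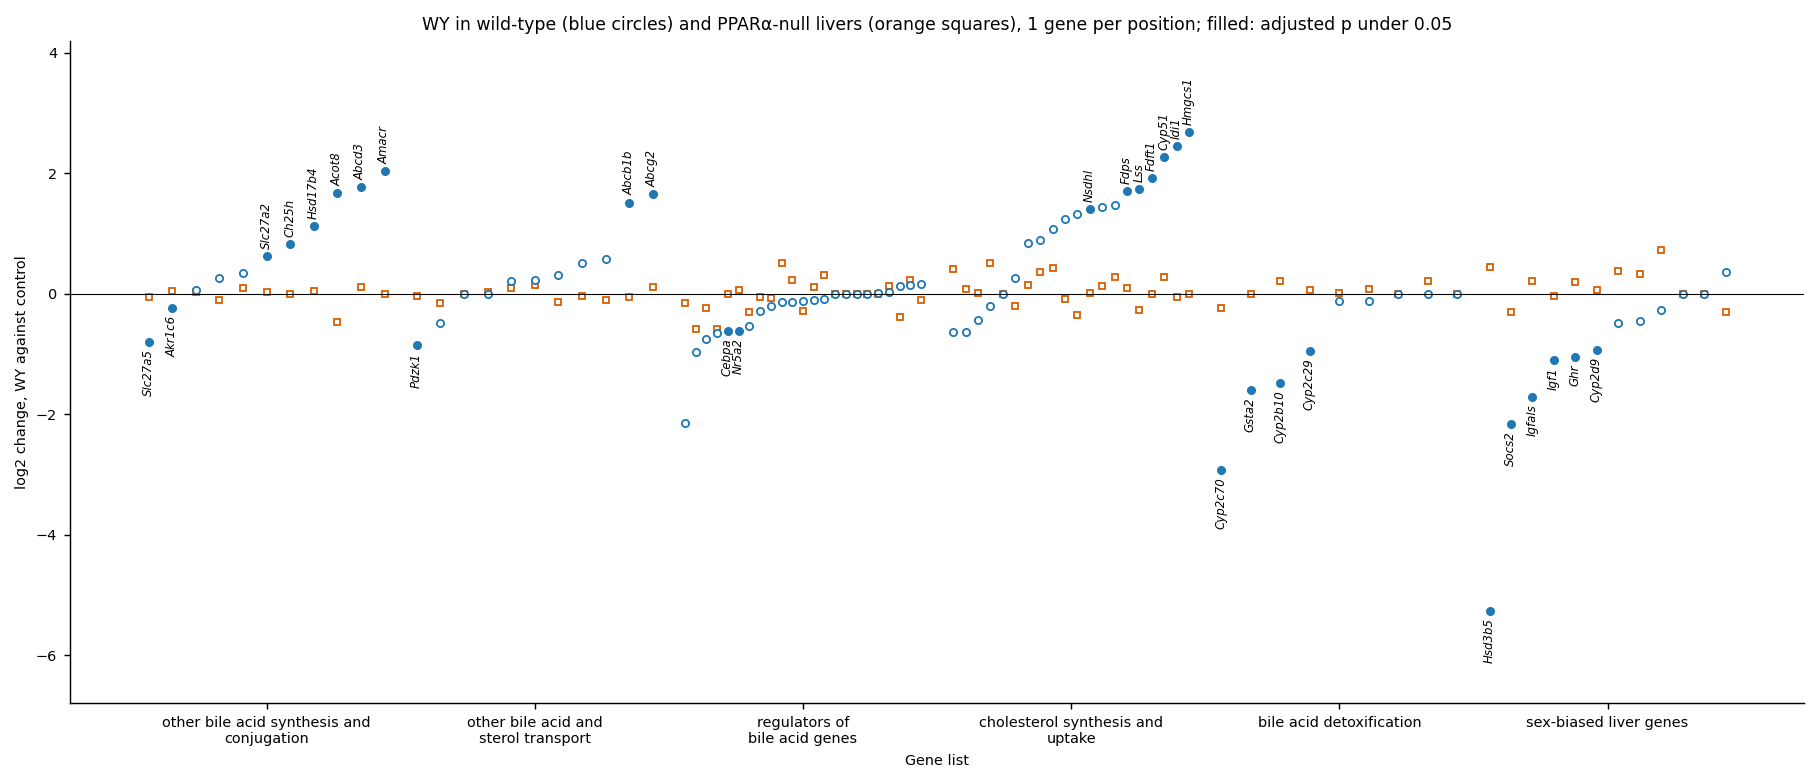
Log2 change with WY against control for each gene of 6 lists, 1 gene per position, in wild-type (blue circles) and PPARα-null livers (orange squares), with called changes filled and named. Called changes are all in wild-type: 6 up and 2 down in synthesis, 2 up and 1 down in transport, 2 down among regulators, 7 up in cholesterol synthesis, 4 down in detoxification and 6 down in the sex-biased list, which also holds genes of growth hormone signalling.

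The genes whose 8 group means ran most like those of each member, by Pearson's r over the means of log2 intensity, were found among 5440 candidates that were above the floor on at least 12 arrays. They are a description of 8 points that share arrays and treatments. For *Cyp7a1* they were *Pik3r1* (r = 0.96), *Scamp3* (r = 0.95) and *Krt17* (r = 0.95). For *Cyp7b1* they were *Ero1b* (r = 0.99), *Sae1* (r = 0.99) and *Nat8f1* (r = 0.99), and for *Cyp8b1*, where the best match was weaker, *Lpin2* (r = 0.92), *Abcc3* (r = 0.86) and *Kcnk7* (r = 0.86). For *Baat* they were *Sdc4* (r = 0.99), *Il6ra* (r = 0.97) and *Nrbp2* (r = 0.96). For *Slc10a1* they were *Cyp2f2* (r = 0.99), *Prpf8* (r = 0.99) and *Zfp358* (r = 0.98), of which *Cyp2f2* is a cytochrome P450 of periportal hepatocytes. For *Abcb4* they were *Myd88* (r = 0.99), *Ndrg1* (r = 0.98) and *Tbl1xr1* (r = 0.97), and for *Nr0b2* *Zan* (r = 0.96), *Sult2b1* (r = 0.93) and *Ddr1* (r = 0.93).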

How the data were processed

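Liver RNA of 24 male mice was measured on Affymetrix U74Av2 arrays, 1 mouse per array. According to the methods and labels, biotin-labelled cRNA was hybridised, images were read with GeneChip Operating Software and the cel files were analysed in Rosetta Resolver. The authors deposited 1 table of linear intensities for 12488 probe sets, of which 66 hold no value. No source used here says how probes were summarised or arrays scaled. Of all values, 24.1% lay at or below 0, and array medians ran from 15.2 to 40.5. No depth exists for arrays, so precision is limited by 3 mice per group.

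From these the intensities were quantile normalised, values under 15.7 (the size, without its minus sign, of the 10th percentile) were set to that floor, and log2 was taken, which understates changes of dim genes. The floor also hides the spread between mice whose values were set to it, so p-values of such groups can be too small. At the floor were 42.9% of values, and 2996 probe sets on every array. Symbols came from the platform annotation, updated to RefSeq. A single symbol was found for 10833 probe sets, while the 396 with several symbols and the 1193 with no symbol were not named. One limma model (version 3.58.1, R 4.3.3) over 8 groups (16 residual degrees of freedom) gave 14 comparisons, with Benjamini-Hochberg adjustment over 12422 probe sets. The methods' own test, a one-way analysis of variance with Scheffe's post-hoc test, was run as an alternative. On simulated data made for WY in wild-type, the fit over 12422 probe sets called 52% of the 2-fold changes, 98% of the 4-fold ones and 26 unchanged probe sets. For HS in PPARα-null it called 67%, 90% and 16. Each fold was planted as an increase in 100 probe sets, all of them among the brighter ones. These shares therefore do not extend to dim probe sets or to falls. The temperature of 42 °C and the 4 hours are those of the labels and methods, though the labels also describe a chamber near 43 °C and later sampling times.

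The members and gene lists were chosen with earlier results of these data known. Named genes are all members, from each pathway list at most 4 called genes of largest change with WY in wild-type and with HS in PPARα-null livers (or that with the smallest adjusted p), Ppara, and the 3 genes most alike to each member. Acta1 and the other muscle markers, Scp2 and Pex5 were named after their values were seen.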

Additional observations from a re-analysis of the deposited data

Results flagged for a closer look

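The effect of WY on *Cyp7a1* differed between strains, with -1.48 in wild-type and 1.72 in PPARα-null livers on the log2 scale. The difference was 3.20 (limma, adjusted p = 0.0156), with all 3 wild-type WY mice below and all 3 PPARα-null WY mice above the mean of their controls. The second probe set of *Slc10a1* differed between strains after HS, by -2.08 (adjusted p = 0.0246), with 0.04 in wild-type and -2.05 in PPARα-null livers. This call held in 4 of 12 fits with 1 mouse left out, and it was lost without mice 1, 16 and 17 (-1.09, adjusted p = 0.427), without scaling (-2.44, adjusted p = 0.17) and with only the arrays compared (adjusted p = 0.186). The *Cyp7a1* difference missed the threshold without mouse 3, without mice 1, 16 and 17, without scaling, in the methods' test and with only the arrays compared (adjusted p from 0.0505 to 0.0877).

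In 2 further cases every wild-type mouse moved one way and every PPARα-null mouse the other, while the test of the difference missed the threshold. The share of all probe sets that separate in this way was not counted, so the pattern alone does not set these genes apart. The second probe set of *Slc10a1* lay below the control mean in all 3 wild-type WY mice and lay above it in all 3 PPARα-null WY mice, and the difference of 1.16 had an adjusted p of 0.189. *Abcb4* lay below the control mean in all 3 wild-type HS mice and above it in all 3 PPARα-null HS mice, and the difference of 0.77 had an adjusted p of 0.129.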

How the results depend on the processing

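The number of the 7 genes called changed by over 1.5 times, or to or from 0, as follows, and the cause was not tested. With no scaling of the arrays, WY in wild-type called 1 in place of 4, HS in PPARα-null 0 in place of 1, the WY interaction 0 in place of 1, PPARα-null against wild-type 2 in place of 4 with WY and 1 in place of 3 with WY+HS. With a common median the WY interaction called 2, and WY+HS against HS in PPARα-null called 2 in place of 1. With the methods' test WY in wild-type called 1, the WY interaction 0, and PPARα-null against wild-type 1 in place of 2 after HS and 2 in place of 4 with WY. With only the arrays compared in the fit, HS in PPARα-null called 0, and PPARα-null against wild-type 1 after HS and 2 with WY. A filter on dim probe sets gave 3 for the WY interaction, a floor at the 5th percentile gave 1 for PPARα-null against wild-type after HS, and the mean over probe sets of a gene gave 1 for the HS interaction. Without mice 1, 16 and 17 the count was 0 for HS in PPARα-null, for WY+HS against HS in PPARα-null and for PPARα-null against wild-type after HS.

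Leaving out 1 mouse at a time, the count ranged from 3 to 5 for WY in wild-type, was 2 in place of 3 for WY+HS in wild-type and 1 for HS in PPARα-null, and ranged from 1 to 2 for WY+HS against HS in PPARα-null. Between strains it ranged from 2 to 3 after HS, 3 to 4 with WY and 2 to 3 with WY+HS. It ranged from 0 to 3 for the WY interaction (0 without mouse 3, 3 without mouse 14, 2 without mouse 8 or 19) and from 0 to 1 for the HS interaction (1 without mouse 18). For the other comparisons it was 0 throughout. The second *Slc10a1* probe set lost its HS interaction without mouse 1, 2, 3, 5, 6, 14, 16 or 17 (lowest -2.12, highest -1.76).

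Over 126 results for single probe sets, 2177 alternatives were run. In 2071 the call was unchanged, in 77 it was lost, in 29 it was gained and in 0 a called change reversed. Uncalled changes were taken to have no direction. Over all probe sets, WY in wild-type called 1339, and 713 with the methods' test. HS in PPARα-null called 878, but 97 without scaling, 59 with only the arrays compared, 415 with the methods' test, 222 without mice 1, 16 and 17, and 412 to 1160 with 1 mouse left out. Without scaling, 90.01% of the calls with WY in wild-type were higher, against 51.8%, and the median over 4821 probe sets above the floor shifted by 0.47. For HS in PPARα-null, 45.0% were higher, against 29.6% with a common median and 68.0% without scaling. No paired analysis was possible because the mouse numbers 1 to 24 are each used once and the groups share none. Signal near the floor limits *Cyp7a1* and *Nr0b2*.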

Other observations

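Bile acid genes of mouse liver differ between the sexes, and a list of 19 sex-biased liver genes and genes of growth hormone signalling was read beside them, of which 12 had a probe set. The background for WY in wild-type livers was 5.59% higher and 5.19% lower. With WY in wild-type livers 0 rose and 6 fell, while 3 fell without mouse 1 and the other 2 mice with muscle signal, in the methods' test or without scaling. Over all probe sets, 121 were called lower without scaling, against 645 with it. *Hsd3b5*, a steroid enzyme of male liver, read 545, 709 and 568 in wild-type controls and was at the floor in all 3 WY mice, at least 38.3-fold lower (adjusted p = 0.0011). The shared floor value hides the spread of those WY mice, so that p-value can be too small. *Socs2*, a growth hormone target, went from 137 ± 26.6 to 33.5 ± 19.1 (SD, n = 3 each; -2.16, adjusted p = 0.0376). *Igfals* and *Igf1*, which form the circulating growth factor complex, changed by -1.72 and -1.11 (adjusted p = 0.00162 and 2.40e-05). Without those mice *Socs2* was -2.03 (adjusted p = 0.128). The WY effect differed between strains for 3 of 12 (background 5.13%), each time higher in PPARα-null. HS in PPARα-null livers lowered 1 of 12 (background 3.89% lower), *Igfals*, which read 362, 251 and 141 in controls and 15.7, 20.98 and 15.7 after HS (adjusted p = 1.95e-06), with 2 of 3 HS mice at the floor, and 183, 225 and 202 with WY+HS. With only the arrays compared that fall had an adjusted p of 0.061. Without mice 16 and 17 the HS group is mouse 18, which was at the floor, so that the size of its fall is not measured.

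Hepatocyte zonation markers also moved with WY in wild-type livers, where 5.59% of all probe sets were called higher and 5.19% lower. Of 7 periportal markers 3 fell and 0 rose, with sums of 13122 to 14408 against 16436 to 17794 in controls. Of 6 pericentral markers 2 fell and 0 rose, with sums of 10774 to 11978 against 13125 to 13546. These 6 went both ways: *Glul* and *Cyp2e1* changed by 0.99 and 0.17, *Oat* and *Slc1a2* by -0.29 and -0.42, and *Lect2* and *Cyp1a2* by -0.87 and -1.90. With WY+HS against control 1 of the 6 rose and 3 fell (background 5.23% higher and 5.38% lower). Of 8 general hepatocyte markers 3 fell and 0 rose (32119 to 33516 against 37306 to 37824). Kupffer cell and macrophage markers (9 measured), skeletal muscle markers (8), cholangiocyte markers (6) and erythroid markers (3) had 0 called in that comparison in limma and in the methods' test, with 1 Kupffer and 1 erythroid marker at an unadjusted p under 0.05, while 1 of 8 stellate and 2 of 7 endothelial markers fell. Without scaling 121 of all probe sets were called lower, against 645 with it. In that fit 1 periportal, 1 pericentral and 1 general hepatocyte marker fell, and 0 stellate and 0 endothelial markers. The part of these shifts in the falls of *Cyp7b1*, *Baat* and *Slc10a1* with WY was not tested.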
